A study of Mus musculus with 6 samples.

Results

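Kinesin genes were taken as the protein-coding genes of the count table whose symbols begin with Kif or Kifc and a number. The rule found 43 genes among the 54532 in the table. Of these, 42 encode kinesin motors, and Kif1bp, which the same rule matched, encodes a protein that binds kinesins and is no motor itself. The motors were divided by known role into 5 mitotic kinesins named at the outset (Kif11, Kif20a, Kif23, Kif2c and Kif4), 10 other mitotic kinesins, 17 transport kinesins and 10 others. RNA was sequenced from Glu-tag cells, a mouse enteroendocrine line, labelled as small intestine, which the series uses to study neuroendocrine tumours of that organ. The 3 control libraries come from cells with a control hairpin, whose genotype is labelled WT. The 3 libraries labelled shIRS2 come from cells with a stable hairpin against Irs2, an adaptor of the insulin and IGF receptors, and their genotype is labelled as a knockdown. All libraries thus share the line and the presence of a hairpin, and no label says whether a line was 1 clone or a pool, or gives a treatment.

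Kinesins are motor proteins that hydrolyse ATP to walk along microtubules or to take them apart. Mitotic kinesins build and lengthen the spindle, move chromosomes and complete cytokinesis, and their RNA is known to peak in the G2 and M phases of cycling cells. Transport kinesins carry vesicles, mitochondria and protein complexes along the microtubules of cells in any phase, and endocrine cells use them to move secretory granules towards the cell surface.

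The labels were checked before the members were read. Irs2 RNA showed no decrease under its hairpin, at 31.4, 28.6 and 38.7 counts per 1000000 counts of the library (CPM) in those numbered 1, 2 and 3 against 31.6, 22.7 and 34.3 CPM in the controls. Both groups are therefore named by their labels. Of 14 enteroendocrine markers 10 had counts, but only Etv1, Pax6 and Nkx2-2 reached a mean of 1 CPM, and the defining genes Gcg, Chga, Neurod1 and Pcsk1 had 0 counts in all 6 libraries. Of 5 epithelial markers all had counts and only Krt8 and Krt18 reached 1 CPM. Of 7 fibroblast markers 6 had counts and 4 reached 1 CPM, with a summed level of 578 to 928 CPM in the controls and 804 to 947 CPM in the libraries labelled shIRS2, while Thy1 was at 0. The immune, endothelial and red cell lists each summed to at most 2.68 CPM in every library. The libraries held 14991019 to 19790073 counts and 19943 to 20942 detected genes. The pair of libraries numbered 2 stood apart from the others, as shown for the kinesins after the hairpin comparison.

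Promoter sequence was available for 33 of the 43 genes, in 37 promoters, and Kif21b, Kif13b and Kif20a were among those without it. It is given first for some of the members that had a sequence. The sequences are RefSeq's, on GRCm38.p6, and each ends at the last base before the RefSeq start or before the first annotated exon. Capitals mark matches, on either strand, to CCAAT or to TTTGAA. The second is the core of the cell cycle homology region, an element known from genes expressed late in the cell cycle. Kif11 and Kif23 are shown for the named mitotic kinesins, Kifc1 and Kifc5b as related copies, and Kif1c and Kif3c as transport kinesins that were lower in the libraries numbered 2. Kif11 is read at chr19:37376302-37376381 on the plus strand, Kif23 at chr9:61946800-61946879 on the minus strand, Kifc1 at chr17:33890662-33890713 on the minus strand, Kifc5b at chr17:26917011-26917090 on the plus strand, Kif1c at chr11:70700468-70700547 on the plus strand and Kif3c at chr12:3365052-3365131 on the plus strand.
Kif11: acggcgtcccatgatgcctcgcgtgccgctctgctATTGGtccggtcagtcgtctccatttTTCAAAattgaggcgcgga
Kif23: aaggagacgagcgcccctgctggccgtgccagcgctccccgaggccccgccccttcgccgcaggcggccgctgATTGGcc
Kifc1: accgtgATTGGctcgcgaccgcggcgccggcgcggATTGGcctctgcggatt
Kifc5b: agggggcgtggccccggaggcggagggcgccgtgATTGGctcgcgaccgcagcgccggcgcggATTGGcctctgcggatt
Kif1c: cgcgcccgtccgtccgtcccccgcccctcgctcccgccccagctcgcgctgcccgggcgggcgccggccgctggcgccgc
Kif3c: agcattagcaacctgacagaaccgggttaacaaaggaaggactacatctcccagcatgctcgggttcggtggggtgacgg

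In Kif11 the complement of TTTGAA lay 19 to 14 bases and that of CCAAT 45 to 41 bases before the RefSeq start. Distances depend on that start. In 27 of 37 promoters the first 30 bases after it lay in a GENCODE transcript of the gene, and in Kif11 and Kif23 they did not. The Kif1c and Kif3c stretches held neither. Among other transport kinesins, Kif3a and Kif3b held CCAAT and Kif1a held TTTGAA within 80 bases of the start. Within 80 bases of the start, 4.51% of all 32851 promoters in the table held TTTGAA or its variant TTCGAA, and 15.3% held CCAAT. Kifc1 and Kifc5b each held CCAAT at a pair of places, as 2.25% of all promoters did in 80 bases, and over 250 bases the 2 promoters shared 201 identical bases, with 11 mismatches at aligned positions and 76 bases set against gaps. In the 250 bases before the start, TTTGAA or TTCGAA was in 5 of 15 promoters of both mitotic classes, in 1 of 13 of transport kinesins and in 17.1% of all promoters. CCAAT was in 9 of 15, in 4 of 13 and in 33.8% of all. TTTGGCGC, a form of the E2F motif, was in the promoters of Kif15 and Kif18a and in 0.417% of all, and TTTCGCGC was in none of the kinesin promoters. The matches describe letters in these windows and are not mapped sites.

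The 5 named mitotic kinesins were all among the more abundant motors, and their levels were steady from library to library. Levels are compared between genes in FPKM, fragments per kilobase of gene length and per 1000000 fragments, and libraries within a gene in CPM. Kif11 (ENSMUSG00000012443, chr19:37376403-37421859, plus strand), whose tetrameric motor pushes the spindle poles apart, was the most abundant kinesin at a mean of 45.4 FPKM. Its RNA stood at 209.6, 201.9 and 228.8 CPM in the controls numbered 1, 2 and 3, and the libraries labelled shIRS2 had 238, 210.3 and 227.5 CPM. The groups overlapped, and the lowest value in each was that of the library numbered 2.

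Kif20a, which carries the chromosomal passenger complex to the spindle midzone, was next of the 5, at 26.1 FPKM. It stood at 103, 98.4 and 97.2 CPM in the controls and 107, 95.6 and 93.8 CPM in the libraries labelled shIRS2. Its highest value in each group was in number 1 and its groups overlapped. Kif4, a chromokinesin that sets the length of the midzone with Prc1, had 23.1 FPKM, at 135, 137 and 114 CPM in the controls and 124, 133 and 122 CPM in the libraries labelled shIRS2. Kif2c, a motor that takes microtubules apart at kinetochores, had 23.0 FPKM, at 111, 95.1 and 98.8 CPM in the controls and 106, 92.6 and 100.2 CPM in the libraries labelled shIRS2. It was lowest in number 2 of each group, whereas Kif4 was highest there. Kif23, the motor of the centralspindlin complex needed for cytokinesis, had 19.8 FPKM, at 159, 171 and 145 CPM in the controls and 157, 165 and 146 CPM in the libraries labelled shIRS2. It was the 1 tested motor with both libraries numbered 2 above all 4 others. Over the 5 genes the highest library exceeded the lowest by 1.14 to 1.20 times, with a median of 1.18.

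The other mitotic kinesins were nearly all expressed. Kifc1, a minus-end motor that bundles spindle microtubules, had 24.3 FPKM and Kif18b, which regulates astral microtubules, 20.3 FPKM. Kif22, a chromokinesin, had 19.8 FPKM, Kif20b, a motor of cytokinesis, 18.6 FPKM, and Kif2a, a depolymerase of spindle poles that also acts in resting cells, 17.7 FPKM. Kif15, which can share the work of Kif11, had 12.9 FPKM, Kifc5b 10.1 FPKM, Kif14 8.24 FPKM and Kif18a, which limits the length of kinetochore fibres, 3.18 FPKM. Kif2b was the exception, with 0 counts. Among the 9 tested members the highest library exceeded the lowest by 1.152 to 1.527 times, with the largest ratio in Kifc1.

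Transport kinesins covered a wider range, from motors as abundant as the mitotic ones to motors with no counts. Kif5b, the heavy chain of conventional kinesin found in most cells, led them at 32.8 FPKM. Its RNA stood at 252, 261 and 239 CPM in the controls and 243, 244 and 220 CPM in the libraries labelled shIRS2. The neuronal heavy chains Kif5a and Kif5c had 0.943 and 0.914 FPKM. Kif1c, a motor of the kinesin-3 family that carries vesicles, had 27.9 FPKM, and Kif1b, of the same family and known for mitochondria and vesicle cargo, 10.3 FPKM. Kif1b stood at 192, 177 and 175 CPM in the controls and 197, 166 and 186 CPM in the libraries labelled shIRS2, with overlapping groups. Kif1a, best known from neurons, had 0 counts in all 6 libraries.

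The subunits of heterotrimeric kinesin-2, which drives transport in cilia and cytoplasm, were present at similar levels. Kif3b had 13.9 FPKM and Kif3a 13.2 FPKM, while Kif3c, an alternative partner of Kif3a, had 5.37 FPKM. Kif3a stood at 51.0, 43.6 and 48.8 CPM in the controls and 56.2, 39.6 and 45.0 CPM in the libraries labelled shIRS2, lowest in number 2 of each group. The endosomal motors Kif13a and Kif16b had 5.64 and 1.71 FPKM and Kif13b, a relative of Kif13a, 3.53 FPKM. Kif21a and Kif21b, plus-end motors that also restrain microtubule growth, had 4.14 and 3.66 FPKM. Kifc3, a minus-end motor of epithelial junctions, had 3.19 FPKM and Kifc2 0.184 FPKM. Among the 15 tested transport kinesins the ratio of highest to lowest library ran from 1.19 to 3.55 with a median of 1.36. The largest ratio was that of Kifc2, which had only 74 counts in all.

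Of the remaining 10 motors, Kif24, a motor of centrioles, had 2.42 FPKM, Kif26a 1.57 FPKM, Kif7, a ciliary regulator of Hedgehog signalling, 1.10 FPKM and Kif26b 0.723 FPKM. Kif9, Kif27, Kif28 and Kif6, and the transport kinesin Kif17, had 52, 44, 8, 7 and 18 counts in all libraries and did not pass the filter on low counts. Kif12 and Kif19a, with Kif1a and Kif2b, made 4 motors at 0 counts. That allows a level of up to 0.0295 CPM over the 6 libraries, taken as 3 counts of the total and covering counting error only. In all 33 of 42 motors were tested, with 29 at a mean of at least 1 FPKM and 17 at 10 FPKM or more. Of the 15 mitotic kinesins 12 reached 10 FPKM, as did 5 of the 17 transport kinesins.

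**Figure D1:**
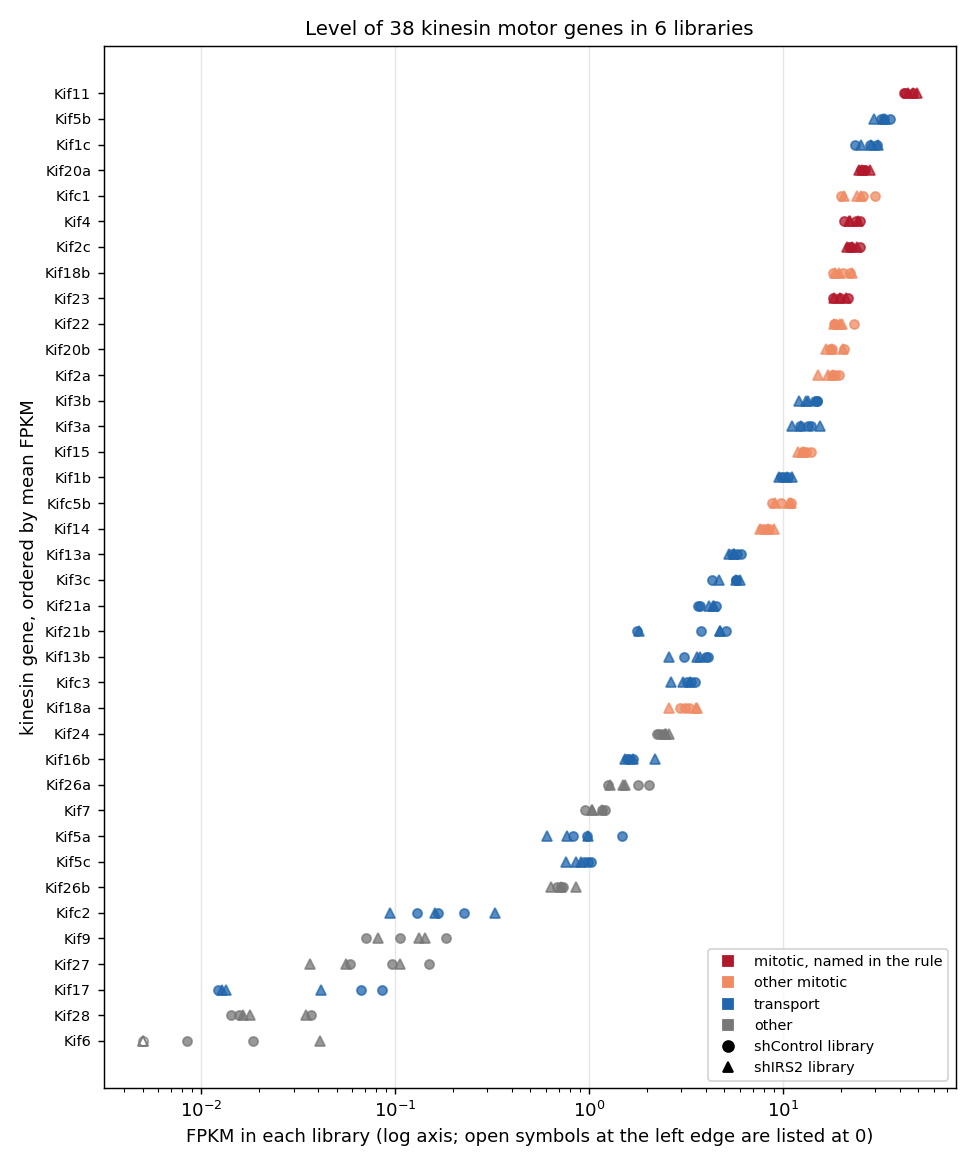
FPKM of each kinesin gene with counts, on a logarithmic axis, with 1 point for each of the 6 libraries. Genes are ordered by mean FPKM and coloured by role. Most mitotic kinesins lie above 10 FPKM, and the transport kinesins spread from 32.8 FPKM for Kif5b to 0.0387 FPKM for Kif17.

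The difference in level between the classes was measured in each library as the median log2(FPKM + 0.1) of the 5 named mitotic kinesins minus that of the 15 tested transport kinesins. It was 2.56, 2.51 and 2.12 in the controls and 2.32, 2.45 and 2.24 in the libraries labelled shIRS2. The group means were 2.40 ± 0.24 (SD, n = 3) and 2.34 ± 0.10 (SD, n = 3), and the ranges overlapped. The value depends on which members are summarised: with all 14 tested mitotic kinesins the mean over libraries was 2.06, in place of 2.37. Summed rather than by the median, both classes were close to equal, since the 5 mitotic motors had 1.01 to 1.17 times the FPKM of all 17 transport motors. The share of all counts that fell on the 42 motors was 0.239% to 0.267%, of which the 5 mitotic kinesins took 0.0684% to 0.0732% in every library. The transport kinesins took 0.0951% and 0.0901% in the libraries numbered 2 and 0.102% to 0.106% in the other 4. In bulk libraries, fewer cells in a phase or of a type and less RNA per cell cannot be told apart.

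The hairpin comparison, which the series was made for, gave no call among the kinesins. Of 33 tested motors 0 were called at an adjusted p of 0.05, with 0% of all 13472 tested genes called in the same edgeR quasi-likelihood fit. The log2 difference of the libraries labelled shIRS2 from the controls was positive in 15 motors and negative in 18, with a median of -0.01 against -0.00 over all genes. At an unadjusted p under 0.05 there was 1 motor, with 1.94% of all genes, and DESeq2 called 0 motors. The 5 mitotic kinesins lay between -0.02 and 0.09, with Kif11 at the upper end (SE 0.09, 95% interval -0.10 to 0.28). The interval excluded a 2-fold change in 30 of 33 motors and reached it in Kif21b, Kif5a and Kifc2. With the replicate number as a block, an alternative fit since no label pairs the libraries, a 2-fold change was excluded in all 33. Again 0 motors were called, with 0.00742% of all genes called, all of them higher. At an unadjusted p under 0.05 the blocked fit had 4 motors, with 9.16% of all genes.

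Kif3b had the smallest p-value of the motors in that comparison. It stood at 84.1, 83.5 and 85.5 CPM in the controls and 76.7, 67.3 and 74.6 CPM in the libraries labelled shIRS2. All 3 of the latter lay below all 3 controls, with a log2 difference of -0.20 (SE 0.09) and an edgeR adjusted p of 1.00. With the block the value was the same, at a SE of 0.07 and an adjusted p of 0.397. Kif5a and Kif2a came next, at -0.46 (SE 0.26) and -0.14 (SE 0.09). Kif2a stood at 122, 123 and 115 CPM in the controls and 117, 108 and 97.9 CPM in the libraries labelled shIRS2, so that its groups overlapped. Groups that did not overlap were found for Kif24, which was higher, and for Kif3b and Kif5c, which were lower, so for 3 of 33 motors. Over all genes 2.75% lay above, 3.77% below and 6.52% either way.

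Some transport kinesins were lower in the libraries numbered 2. These were compared with the mean of those numbered 1 and 3 in a fit with the group as a term. That contrast was chosen with earlier results of these data known. Of the 33 motors 5 were called, all lower in number 2, which is 15.2% of the motors, where 11.9% of all tested genes were called lower, 11.6% higher and 23.5% either way. The share of motors called is thus near the background. The motors called were Kif21b, Kif13b, Kif3c and Kif1c, which are 4 of the 15 tested transport kinesins, and Kifc1, 1 of the 9 tested other mitotic kinesins. Of the 5 named mitotic kinesins and of the 4 other tested motors 0 were called. The median log2 difference was -0.10 over the transport kinesins, of which 11 of 15 were negative, 0.02 over all 14 tested mitotic kinesins, -0.11 over the 4 others and -0.00 over all genes. At an unadjusted p under 0.05 there were 10 motors, with 35.9% of all genes. The difference between the classes themselves was not tested.

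**Figure D2:**
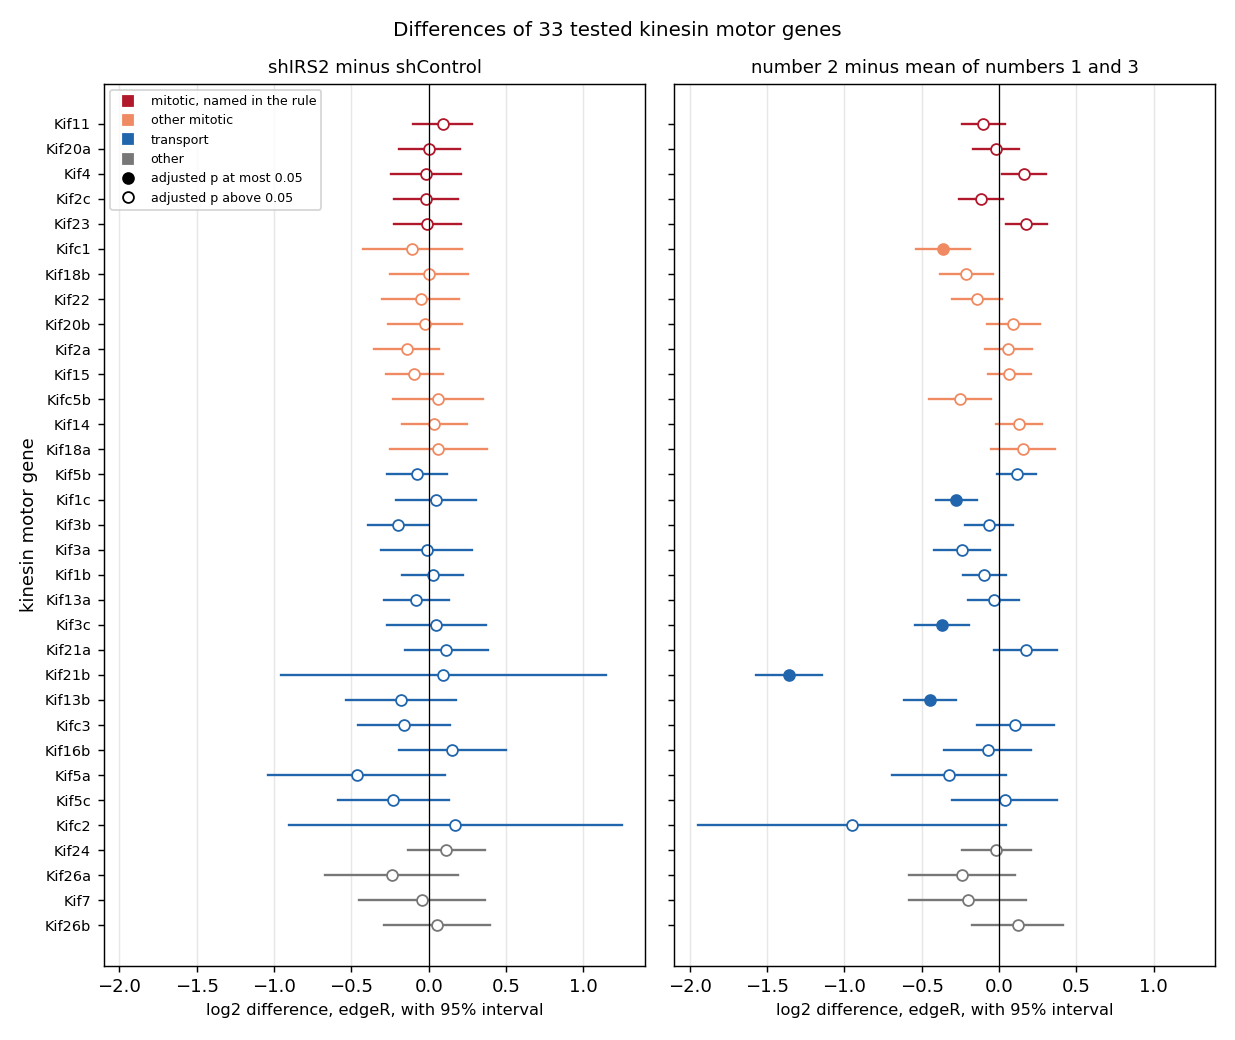
Log2 difference with its 95% interval for each tested kinesin motor, for the hairpin comparison and for the libraries numbered 2 against the mean of those numbered 1 and 3. Kif21b lies at -1.36 in the second comparison, apart from the other motors called, and close to 0 with a wide interval in the first. Kifc2 lies at -0.95 in the second with an interval of -1.95 to 0.05.

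Kif21b (ENSMUSG00000041642, chr1:136131389-136177998, plus strand) had by far the largest difference of the motors called. Its RNA stood at 47.0, 21.3 and 62.6 CPM in the controls numbered 1, 2 and 3, and the libraries labelled shIRS2 had 58.3, 21.8 and 58.3 CPM, from 704, 422 and 1108 and from 991, 358 and 912 counts. Both libraries numbered 2 lay below all 4 others. The log2 difference was -1.36 (SE 0.10, 95% interval -1.57 to -1.14), a level of 0.390 times that of numbers 1 and 3, with an edgeR adjusted p of 2.63e-06. It was of like size in each group, at -1.31 in the controls and -1.39 in the libraries labelled shIRS2. Among all 13472 tested genes Kif21b ranked 64 by the size of the decrease and 7 by p-value, and among the 10114 with a mean of at least 5 CPM it ranked 15 by the decrease. Its hairpin difference was 0.10 (SE 0.45) without the block and 0.09 (SE 0.09) with it, and neither passed the test. Kif21a, its close relative, had a number 2 difference of 0.17 (SE 0.10, edgeR adjusted p 0.208), at 24.3, 29.1 and 24.4 CPM in the controls and 27.1, 28.2 and 28.3 CPM in the libraries labelled shIRS2.

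The other transport kinesins called differed less. Kif13b stood at 55.0, 40.2 and 52.6 CPM in the controls and 47.2, 33.1 and 48.9 CPM in the libraries labelled shIRS2, a log2 difference of -0.45 (SE 0.08, edgeR adjusted p 0.00113). Kif3c stood at 43.6, 31.8 and 42.9 CPM in the controls and 42.6, 34.0 and 44.7 CPM in the libraries labelled shIRS2, a difference of -0.37 (SE 0.08, edgeR adjusted p 0.00466). Kif1c stood at 209, 170 and 225 CPM in the controls and 209, 182 and 227 CPM in the libraries labelled shIRS2, a difference of -0.28 (SE 0.06, edgeR adjusted p 0.00541). In each of these genes both libraries numbered 2 lay below the other 4.

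Kif3c is overlapped on the other strand by the antisense gene 1110002L01Rik, with which it shares 34.0% of its sequence in stretches of 100 bases, and whether counting used strand is not given in the sources used here. The antisense gene held 1267 counts against 4025 for Kif3c, and its level in the libraries numbered 2 was 14.0 and 13.5 CPM, above the 10.7 to 13.0 CPM of the other 4. Kif21b, Kif13b and Kif1c share no such stretch with another gene.

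Kifc1 stood at 103.5, 67.8 and 88.8 CPM in the controls and 82.4, 69.6 and 87.1 CPM in the libraries labelled shIRS2. Its log2 difference was -0.36 (SE 0.08, edgeR adjusted p 0.00570). Kifc5b, its copy on the same chromosome, shares 16.6% of its 100-base stretches with Kifc1 and had a difference of -0.25 (edgeR adjusted p 0.0672), so reads may be divided between the copies. Kif1bp, the kinesin-binding protein, was also lower, at 32.6, 24.1 and 30.7 CPM in the controls and 32.3, 23.0 and 30.02 CPM in the libraries labelled shIRS2, a difference of -0.39 (SE 0.09, edgeR adjusted p 0.00711).

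Of the 5 calls only that of Kif21b held without either library numbered 2. Without the control library numbered 2 Kif21b and Kif13b remained called, and the edgeR adjusted p was 0.298 for Kif1c, 0.285 for Kifc1 and 0.197 for Kif3c, at log2 differences of -0.23, -0.25 and -0.33. When shIRS2 number 2 was left out, Kif21b and Kifc1 remained called, and the adjusted p was 0.0899 for Kif1c, 0.0657 for Kif3c and 0.0711 for Kif13b, at -0.32, -0.41 and -0.39. Either way 2 motors were called in place of 5, in fits that called 808 of 13694 and 1081 of 13794 genes in place of 3169 of 13472. When control 1 was left out 8 motors were called, with 3586 of 13754 genes, and when shIRS2 number 1 was left out 9 were, with 3687 of 13676 genes.

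Among the 5 named mitotic kinesins the difference in number 2 went both ways and none passed. It was 0.18 for Kif23 (SE 0.06, edgeR adjusted p 0.0541), 0.16 for Kif4 (adjusted p 0.0986), -0.02 for Kif20a (0.880), -0.10 for Kif11 (0.277) and -0.12 for Kif2c (0.227). Their median was -0.02. Over all tested motors both libraries numbered 2 lay below the other 4 in 11 of 33 motors, which is 33.3% against 23.4% of all genes, and above them in 1 of 33, which is 3.03% against 16.7%. Over all genes 40.1% did not overlap in either direction. The deviation of number 2 had the same sign in both groups in 24 of 33 motors, 72.7% against 76.0% of all genes.

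**Figure D3:**
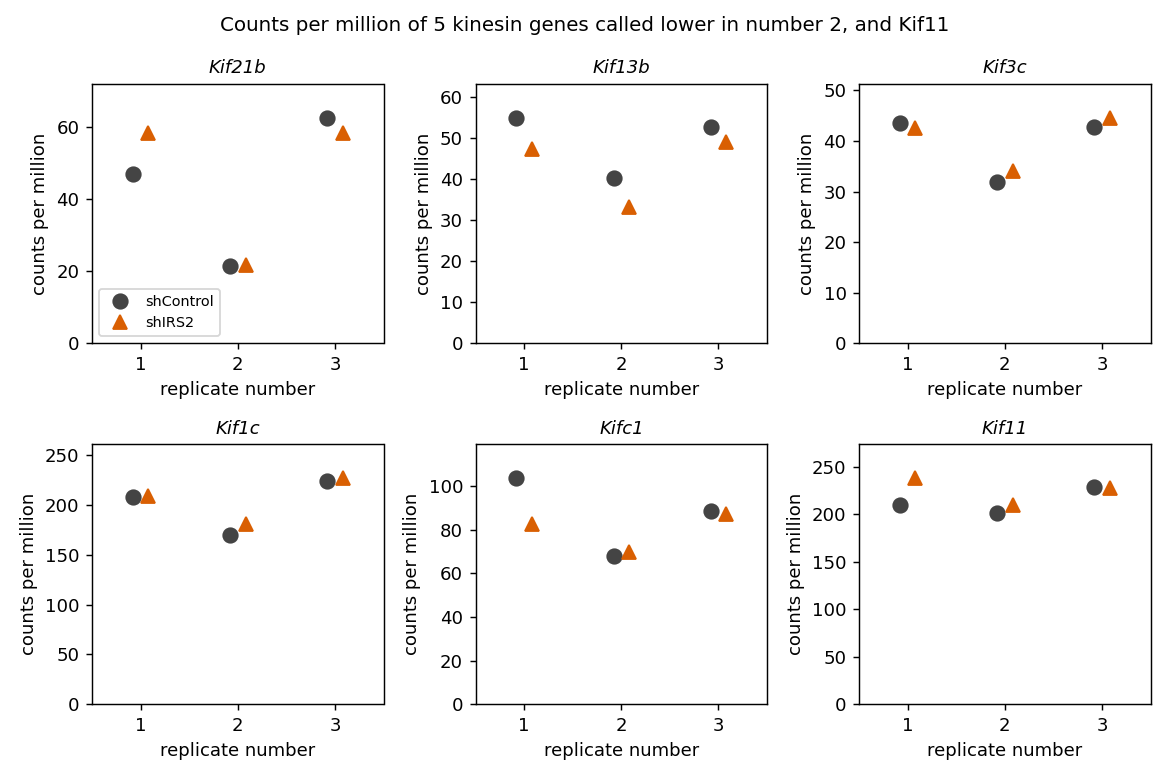
CPM in each library for selected kinesins, by replicate number and coloured by hairpin group. The 2 points of number 2 lie at 21.3 and 21.8 CPM for Kif21b, below the other 4 libraries. For Kif11, which was not called, they lie at 201.9 and 210.3 CPM and overlap the others.

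Between the libraries numbered 3 and 1 no kinesin passed the test. That contrast takes libraries of the same number as pairs, which the data do not settle for numbers 1 and 3. Of 33 motors 0 were called, where 0.238% of all tested genes were called, and 3 motors had an unadjusted p under 0.05 against 10.3% of all genes. Kif5a had the smallest p-value. It stood at 10.5, 6.82 and 5.87 CPM in the controls and 6.95, 4.20 and 5.43 CPM in the libraries labelled shIRS2, and number 3 minus number 1 was -0.61 (SE 0.19, edgeR adjusted p 0.268). Its number 3 lay below number 1 in both groups. Without the library labelled shIRS2 numbered 3, Kif5a was the 1 motor called, and it was lower, in a fit that called 264 of 13802 genes, 104 of them lower. With all libraries 0.134% of all genes were called lower in number 3. Kif18a stood at 31.4, 31.9 and 29.1 CPM in the controls and 35.7, 34.4 and 25.6 CPM in the libraries labelled shIRS2, a difference of -0.28 (adjusted p 0.389). Kif22 stood at 117, 91.0 and 90.6 CPM in the controls and 100.1, 88.2 and 97.1 CPM in the libraries labelled shIRS2, a difference of -0.20 (adjusted p 0.437).

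Partners of the motors were read from lists in the same fits. Of 20 spindle partners 2 were lower and 0 higher in the libraries numbered 2, where 11.9% of all genes were called lower and 11.6% higher, and the median log2 difference was -0.02. These were Aurkb, the kinase of the chromosomal passenger complex, at -0.29 (edgeR adjusted p 0.00935) and Nusap1, a microtubule-bundling protein, at -0.25 (0.0167). Birc5, another passenger protein, had 0.16 (0.0936) and the spindle protein Ckap2 0.15 (0.135).

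Of 16 tested transport partners 4 were lower and 0 higher, 15 of the 16 differences were negative and the median was -0.16. Of all 13472 tested genes 11.9% were called lower, 6821 differences were negative and the median was -0.00. Klc4, a light chain of conventional kinesin, stood at 16.1, 10.6 and 16.2 CPM in the controls and 17.8, 11.02 and 17.9 CPM in the libraries labelled shIRS2, a difference of -0.62 (edgeR adjusted p 0.00169). Both its libraries numbered 2 lay below the other 4. The cargo scaffold Mapk8ip1 had -0.40 (0.00305), the lysosomal kinesin adaptor Plekhm2 -0.38 (0.00528) and its GTPase partner Arl8a -0.28 (0.0150). Of 11 tested genes of dynein and dynactin, the motor complex of the opposite direction, 2 were lower, against the same 11.9% of all genes. They were Dctn1 and Dctn2 at -0.22 each (0.0231 and 0.0242), and the next were Dctn3 at -0.19 (0.0875) and Dync1h1 at -0.13 (0.169).

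The hairpin comparison called 0 genes in each of the 3 lists, of 20, 16 and 11 tested genes, where 0% of all genes were called. Between numbers 3 and 1 the scaffold Mapk8ip3, 1 of the 16 tested transport partners, was called, at -0.56 (edgeR adjusted p 0.0235). It was the 1 gene of the lists called there, where 0.238% of all genes were called and 0.134% were called lower.

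Some other values moved with the replicate number, and some overlapped between numbers. The summed enteroendocrine markers were 101 and 111 CPM in the libraries numbered 2 and 125 to 158 CPM in the other 4. Most of that sum was Etv1, at 75.3 and 88.0 CPM in number 2 and -0.44 on the log2 scale (edgeR adjusted p 0.00230), while Nkx2-2 had 0.03. The fibroblast markers summed to 578 and 804 CPM against 611 to 947 CPM, so that the sums overlapped. Only Pdgfra of these markers is given here, at -0.67 (edgeR adjusted p 4.27e-05), and that gene alone does not stand for the list. Mitochondrial transcripts took 1.63% and 1.71% of the counts in number 2 and at most 1.61% in the others. The neuronal and glial markers, 6 of 6 with counts and 4 at 1 CPM or more, summed to 35.2 and 41.5 CPM against 41.6 to 48.9 CPM. Irs2 was itself lower in number 2, at a log2 difference of -0.38 (edgeR adjusted p 0.0107). The GC content of the transcripts moved with it as well. Over the 33 tested motors the number 2 difference had a Pearson correlation of -0.55 and a Spearman correlation of -0.64 with GC content, and over 13462 genes -0.24 and -0.28. The difference of number 3 from number 1 also went with GC content, in the other direction, at 0.24 and 0.31 over the motors and 0.20 and 0.29 over all genes. These describe genes of the same 6 libraries, which are not independent replicates.

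The 5 motors called had a GC content of 51.6% to 57.0%, with a median of 54.5%, and the 28 others 38.3% to 61.7%, with a median of 48.3%. By class the median was 48.1% for the 5 named mitotic kinesins, 46.4% for the other mitotic ones and 51.6% for the transport kinesins. It was highest, at 56.4%, for the 4 tested motors outside these classes, of which 0 were called. With all genes divided by GC content into 5 equal bins, the median number 2 difference went from 0.08 in the lowest bin to -0.15 in the highest. A correction of each library for GC content, chosen after seeing the data, left all 5 motors called, with Kif21b at -1.25 (edgeR adjusted p 1.29e-05), and added Kif3a at -0.29 (0.00991) and Kif11 at -0.18 (0.0264). The part that cell type markers play in these differences was not tested.

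**Figure D4:**
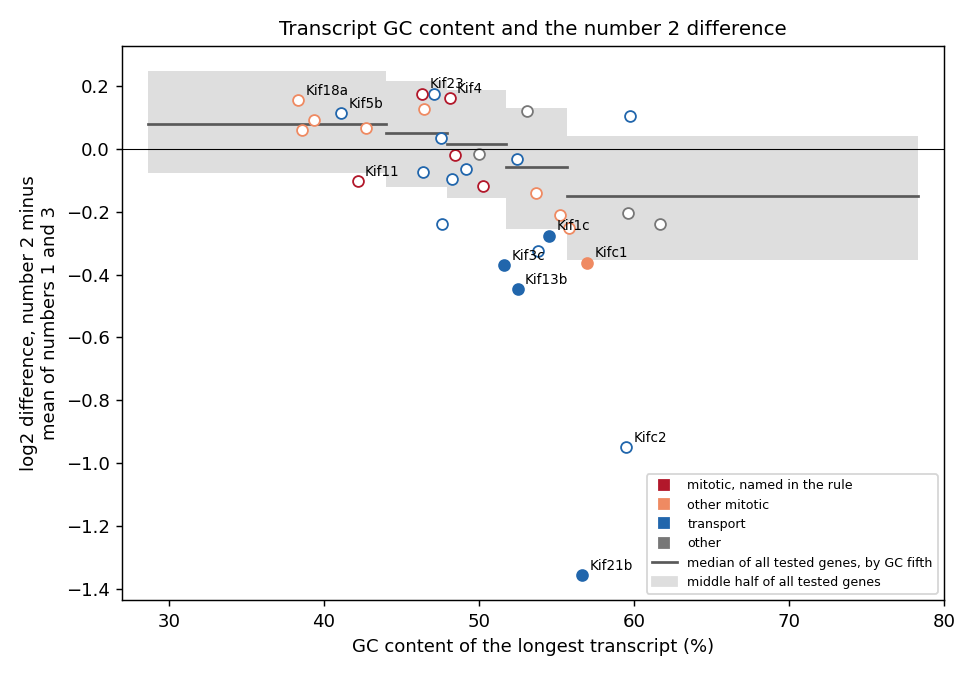
Log2 difference of the libraries numbered 2 from the mean of those numbered 1 and 3 against transcript GC content in percent. Points are the 33 tested kinesin motors. Grey lines and bands give the median and the range between quartiles of all tested genes, kinesins included, in 5 bins of GC content. Motors called lower lie between 51.6% and 57.0% GC, with Kif21b at 56.7% and the largest decrease.

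Some members share sequence with a neighbour, so that their counts are less certain. Of its 100-base stretches, Kif20a shares 21.4% with Cdc23, Kif2a 16.8% with Dimt1 and Kif4 13.3% with Pdzd11, each an overlapping gene on the other strand. Of these neighbours Dimt1 was itself higher in the libraries numbered 2, at 0.48 (edgeR adjusted p 0.00128), and Kif2a was not called.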

How the data were processed

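Per the labels' protocols, RNA was poly(A)-selected, made into strand-specific libraries and read as paired ends. Per the submitters' processing notes the build was mm10; aligner, counter and strand setting: not given in the sources used here. The authors deposited raw counts per gene and FPKM values, which equal the count over the listed gene length and a library total of 0.985 to 1.02 times the count sum. Columns beginning NC were read as controls and S as shIRS2, by name alone. Library totals were 14991019 to 19790073 counts, and limits from 3 counts cover counting error only.

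Counts were filtered by filterByExpr, leaving 13472 of 54532 genes, scaled by TMM and tested with edgeR 4.0.16 (R 4.3.3, quasi-likelihood, robust, Benjamini-Hochberg over all tested genes, threshold 0.05, two-sided), on the hairpin group alone and, for replicate numbers, on group plus number. Alternatives used DESeq2 1.42.0 and limma 3.58.1 on log2(FPKM + 1) or log2(FPKM + 0.1), other scaling and filters, left-out libraries and a GC correction. The edgeR step was tested on simulated data.

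Deviations from the group means correlated at 0.167, 0.576 and 0.260 between libraries of the same number (1, 2 and 3), so the numbers were taken as pairs under a rule that each exceed 0.1. Deviations within a group balance out, so a shared shift of number 2 itself raises the correlations among numbers 1 and 3. For numbers 1 and 3 the rule therefore cannot decide whether they pair. Number 1 correlated as closely with number 3 of the other group (0.189 and 0.199), so the values set number 2 apart and do not tell 1 from 3, and no label ties a number to a culture or day. The series calls the samples biological triplicates. P-values of the hairpin fit without the block measure the spread between libraries of a group, part of which may be technical. With the number in the fit, they measure how far the 2 groups disagree in their differences between numbers. Each number has 1 library per group, so those p-values do not measure how numbers would vary if more were made. The members, the lists and the number 2 contrast were chosen with earlier results of these data known. Every library value is given for the 5 named mitotic kinesins, Kif21b, the 5 transport kinesins of highest FPKM, each member called, and the 3 with the smallest p where fewer than 3 were called. Up to 4 genes of each partner list with the smallest number 2 p are named; Mapk8ip3, Kif21a, Dimt1 and 1110002L01Rik were added after their values were seen. GC content and shared 100-base stretches were computed from GENCODE release M21 transcripts. Protein sequences were not analysed here.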

Additional observations from a re-analysis of the deposited data

How the results depend on the processing

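With the replicate block 1 gene was called between the hairpin groups in place of 0, and 0 kinesins, and the block changed no call of a kinesin. Over all genes the hairpin comparison called 6 genes without a filter on low counts, 2 with DESeq2 and 3 with GC correction and block, and 0 with any 1 library or both libraries numbered 2 left out. For number 2 the count over all genes was 3169, with 1968 by DESeq2, 1836 by limma on log2(FPKM + 1), 1852 on log2(FPKM + 0.1), and 808 (without the control library numbered 2) to 3687 with 1 library left out, including 1081 without the library labelled shIRS2 numbered 2. For motors it was 5, and 2 to 9 with 1 library left out. Kif21b was called in all 14 alternatives of that comparison, at adjusted p-values of 1.24e-46 to 0.0122, Kif13b and Kifc1 in 13, and Kif1c and Kif3c in 12. Kif3a was called in 5, Kif23 in 3, Kif4 in 2 and Kif11 in 1. Between numbers 3 and 1 the count over all genes was 32, with 0 without the group term, 204 without a filter, 52 by DESeq2, 0 by limma with either pseudocount, and 64 to 264 with 1 library left out, and for motors 0 to 1. The mitotic minus transport difference of 2.37 was 2.17 with a pseudocount of 1, 2.06 over all mitotic kinesins, 2.31 without both libraries numbered 2, and 2.33 to 2.42 with 1 library left out. Over all settings, which include 1 with every member that had a count, it ran from 2.06 to 2.50. No kinesin call reversed under these alternatives, and the causes of these differences were not tested. Kinesins with few counts, such as Kifc2 with 74, could show only large differences.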
